A study of Mus musculus with 80 samples.

Results

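The liver's response to a prolonged fast was compared with its response to a short fast at the same clock phase. Of the 80 poly(A) RNA-seq libraries of mouse liver, 24 were titled fasted and taken at the 6 times used here, each from a separate mouse. The prolonged fast comprised 12 libraries from circadian time (CT) 36, CT40 and CT44, when food had been absent for 26, 30 and 34 h. The short fast comprised 12 libraries from CT12, CT16 and CT20, after 2, 6 and 10 h. Each late time lies 24 h after an early one, so the 3 pairs CT36 and CT12, CT40 and CT16, and CT44 and CT20 share a phase of the clock and differ in the length of the fast. Every time had 2 males and 2 females. All mice were C57BL/6J of 8 to 12 weeks, kept for 10 days under 12 h light and 12 h dark and released into constant darkness, where food was removed at CT10. The 24 control libraries of the same 6 times came from mice in the same darkness that fed freely, and they served as the measure of what the second day alone changed. Mice were housed in groups, and the labels do not tie libraries to cages. Levels are given as CPM, the counts of a gene per 1000000 counts of its library, after scaling by edgeR's TMM factors, and changes as the log2 difference of the late from the early time, averaged over phases and sexes, with the standard error (SE) of edgeR's quasi-likelihood fit. A gene was called where its Benjamini-Hochberg adjusted p was under 0.05. Values that follow rose by, fell by or a change of are on the log2 scale.

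In the first hours without food the liver breaks down glycogen and stops making fat. Later it burns fatty acids released by adipose tissue, exports part of their carbon as ketone bodies and makes glucose from lactate, glycerol and amino acids. The nuclear receptor PPARalpha induces fatty acid oxidation, while the SREBP factors, which need insulin or low sterol to act, drive the genes of fatty acid and cholesterol synthesis. Growth hormone, glucocorticoid, glucagon and the circadian clock shape the same genes, so that a comparison across hours of the day confounds time and fasting unless the phase is held.

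The 24 libraries held between 26820667 and 52999252 counts. Total counts did not differ detectably between the short and the prolonged fast (permutation test, two-sided, p = 0.725), and the share of mitochondrial transcripts was higher after the prolonged fast, with medians of 5.65% and 6.39% (permutation test, two-sided, p = 0.0112). Both tests shuffled all 24 libraries without holding time or sex. The treatment field of the sample records calls 16 of these 24 libraries control, against their titles, and a further field calls all 24 male. Titles were followed. Levels of Xist and Ddx3y went with the titled sex in all 24 libraries. At CT36, CT40 and CT44 the lowest library titled fasted held 2786 CPM of Apoa4 and 5177 CPM of Cyp4a14, against at most 460.1 and 1069 CPM in the libraries titled control. Hepatocyte markers summed to 84525 to 140319 CPM after the short fast and to 84109 to 121901 CPM after the prolonged fast.

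A pair of the prolonged-fast libraries stood apart from the rest, CT40 female 2 and CT44 female 1. They lay at the end of the first principal component, at scores of 102.7 and 76.4 where the other 10 prolonged-fast libraries reached at most 47.9. Igfbp1, a secreted binding protein of IGF-1 that insulin represses, stood at 6301 and 4626 CPM in them against 70.1 to 2147 in the other 10. Lepr, the leptin receptor, stood at 1089 and 671 CPM against 6.66 to 262. Setdb2, a histone methyltransferase gene, stood at 729.5 and 459.9 CPM against 12.4 to 58.2, and Myc, the growth regulator, at 107 and 58.6 CPM against 10.7 to 18.8. Tat, tyrosine aminotransferase, at 10630.3 and 8769 CPM, and Got1, a cytosolic aspartate aminotransferase, at 3761 and 2586 CPM, were also higher in them than in the others of the 24 fasted libraries. At the low end, Car3, carbonic anhydrase 3, stood at 1.92 and 4.92 CPM against 19.9 to 346, and Gamt, which uses methyl groups to make creatine, at 2.21 and 2.31 CPM against 20.3 to 60.9. These genes were picked after their values were seen. Some results in which these libraries were extreme are given below with and without both, and others only with both. The latter include Ppargc1a, Ctsl, Cps1 and Slco1a4, for which both libraries lay above the 22 others. They also include Ghr, Abcb11, Serpina6, Cyp1a2 and Ugt2b1, for which both lay below the 22 others.

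**Figure D1:**
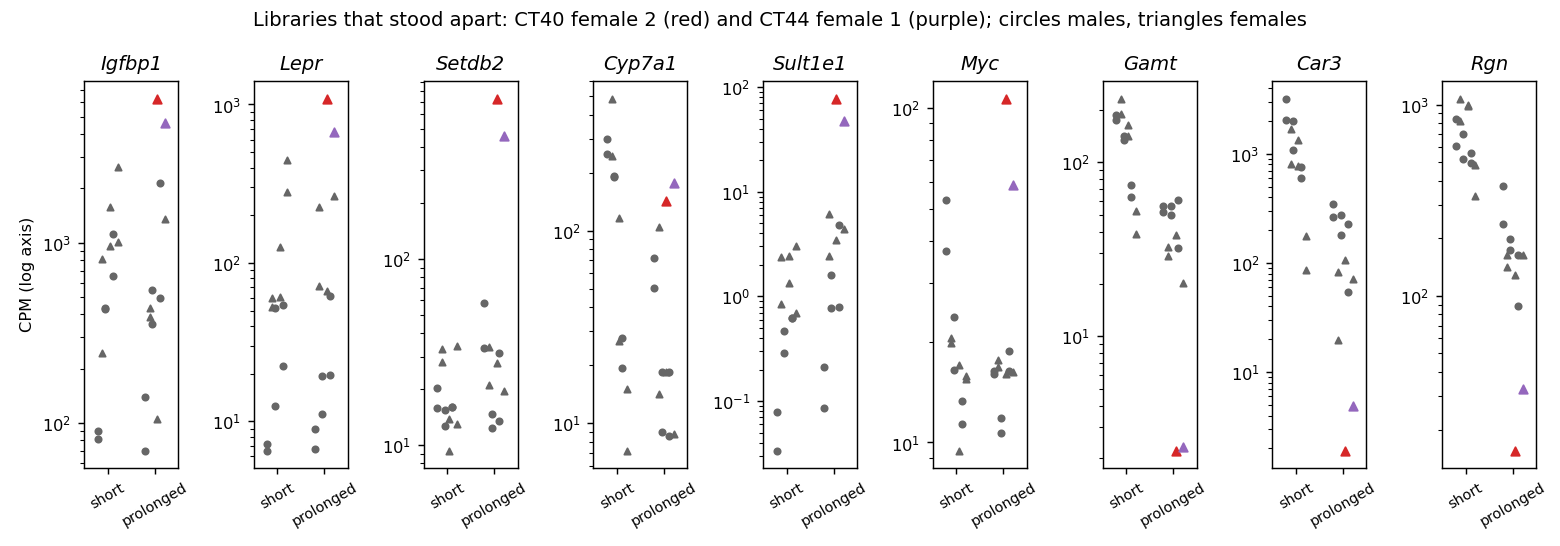
Levels in CPM, on log axes, of 9 genes in the 24 fasted libraries, with the short fast on the left of each panel and the prolonged fast on the right, circles for males and triangles for females. The red triangle is CT40 female 2 and the purple triangle CT44 female 1, which lie outside the range of the other prolonged-fast libraries for each of these genes; for Igfbp1 they read 6301 and 4626 CPM.

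Averaged over the 3 phases, 5806 of 19189 genes were called (30.3%), 2888 higher after the prolonged fast (15.1%) and 2918 lower (15.2%). The change reached 1.5 times for 891 of the genes that rose and 1294 of those that fell. The median change over all genes tested was 0.00 on the log2 scale. Counts of the gene and marker lists below are to be read beside these shares, and no list was tested as a set. Of the called genes, 5186 had 1 sign at all 3 phases and 3381 had 1 sign in all 6 combinations of phase and sex. The calls rest on the mean over these same phases and sexes, which favours such agreement. Without both libraries that stood apart, 5736 genes were called, 2772 higher and 2964 lower.

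Over the same 24 h no gene was called in the control mice. In a fit of 48 libraries, 0 of 20362 genes (0%) differed between CT36 to CT44 and CT12 to CT20 in controls by edgeR's quasi-likelihood test, with 1151 genes at an unadjusted p under 0.05, 1 gene called by limma-voom, 15 by DESeq2 and 336 by edgeR with no filter on low counts. The difference between the fasted and the control change passed the test for 4208 genes (20.7%), 2001 of them in the positive direction. Of the 5806 genes called within the fasted libraries, 3735 also passed this test, all with the same sign. The same fasted libraries enter both tests and the controls changed little, so this agreement in sign is no separate support. The 5 genes of smallest p for this difference were Cyp2c70 (log2 change -4.41, SE 0.16, adjusted p = 5.56e-18), Nsdhl (-2.81), Tm7sf2 (-1.32), Cyp51 (-2.27) and Selenbp2 (-4.88). Each of these 5 differences was a fall in fasted mice beside a control change between 0.04 and 0.22.

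**Figure D2:**
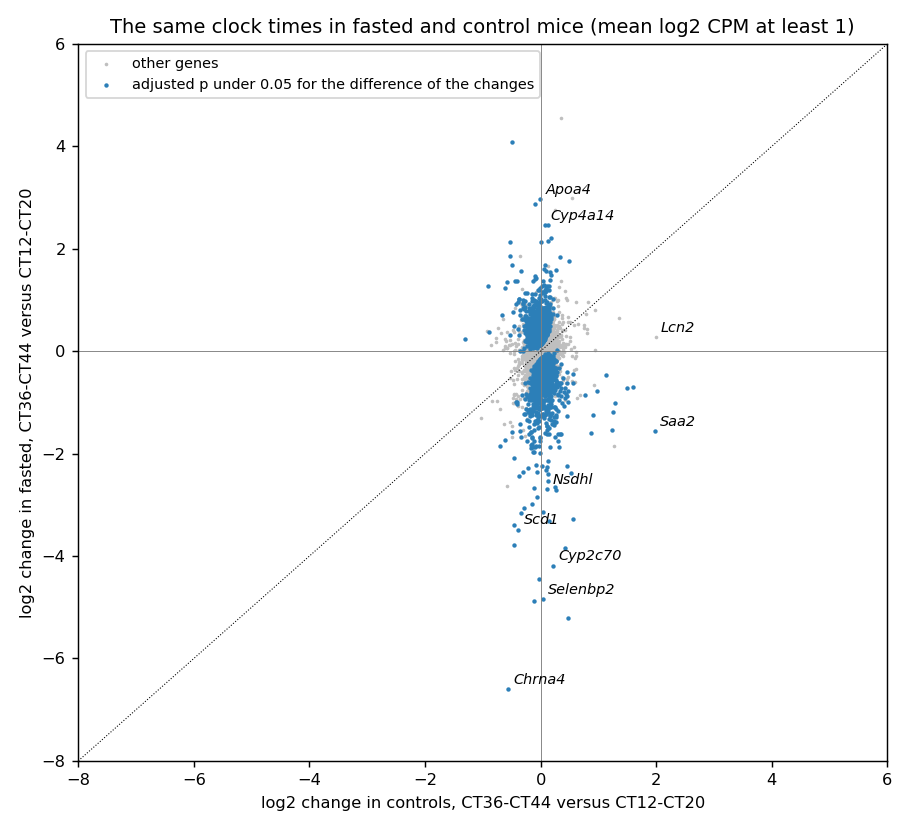
Log2 change from CT12-CT20 to CT36-CT44 in control mice (horizontal axis) and in fasted mice (vertical axis) for genes with a mean log2 CPM of at least 1, with genes whose changes differed between treatments in blue. The points stretch along the vertical axis, with -6.60 for Chrna4 and 2.97 for Apoa4 as examples, and only a few control changes exceed 1.

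Largest rises and falls were taken among called genes with a log2 CPM that averaged at least 1, a named symbol and 1 sign in all 6 combinations of phase and sex. By this rule the 10 deepest falls included Cyp2c70, Selenbp2, Hsd3b5, Slc22a7 and Chrna4. Cyp2c70, the P450 that makes muricholic acids from bile acids in mice, ranged from 126 to 560.2 CPM (median 350.4) after the short fast and from 10.1 to 32.2 CPM (median 17.7) after the prolonged fast. The ranges did not overlap, and the gene fell (log2 change -4.18, SE 0.15, adjusted p = 3.09e-11). Its decline ran through the whole fast, with time means of 509, 366, 202, 112, 78.4, 44.8, 23.98, 16.7 and 15.5 CPM from CT12 to CT44. Control mice held 506 ± 84.2 CPM (SD, n = 4) at CT12 and 794 ± 134 CPM (SD, n = 4) at CT44.

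Selenbp2, a selenium-binding protein gene with a male bias in liver, fell in both sexes. In males it ranged from 775 to 1721 CPM (median 1167) after the short fast and from 19.3 to 49.7 CPM (median 30.7) after the prolonged fast. In females it ranged from 16.1 to 85.7 CPM (median 46.0) after the short fast and from 0.994 to 2.39 CPM (median 1.76) after the prolonged fast, and in neither sex did the ranges overlap (log2 change -4.84, SE 0.20, adjusted p = 2.6e-10). Its paralog Selenbp1 is nearly identical, and how reads shared by the pair were assigned is not given in the sources used here. Hsd3b5, a male-biased enzyme of steroid metabolism, ranged in males from 17.5 to 264 CPM (median 59.7) after the short fast and from 0.193 to 9.13 CPM (median 1.01) after the prolonged fast, and in females it stood at or below 1.41 CPM throughout (log2 change -5.18, SE 0.60, adjusted p = 2.26e-05). Slc22a7, an organic anion transporter, ranged from 5.21 to 66.6 CPM (median 21.2) after the short fast and from 0.814 to 5.2 CPM (median 2.35) after the prolonged fast, without overlap (log2 change -3.26, SE 0.34, adjusted p = 5.87e-06). Chrna4, a nicotinic receptor subunit, was a low transcript, from 0.325 to 22.2 CPM (median 5.52) after the short fast and from 0 to 0.201 CPM (median 0.0344) after the prolonged fast. Its sums were 2935 counts over the 12 short-fast libraries and 25 over the 12 prolonged-fast libraries, and the ranges did not overlap (log2 change -6.58, SE 0.28, adjusted p = 3.21e-10).

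Others of the 10 largest falls were Scd1 (-3.48), Fabp5 (-3.40), Scd3 (-3.16) and Car3 (-3.13). Scd1 and Scd3 encode desaturases that place the double bond of oleate and share much of their sequence. Fabp5 encodes a carrier of fatty acids, and it ranged from 4.23 to 93.3 CPM (median 29.4) after the short fast and from 1.13 to 7.58 CPM (median 1.69) after the prolonged fast (log2 change -3.40, SE 0.19, adjusted p = 7.13e-09). Car3 ranged from 87.2 to 3208 CPM (median 949.7) after the short fast and from 1.92 to 346 CPM (median 94.7) after the prolonged fast, and its lowest 2 values were those of the libraries that stood apart. Its change was -3.13 (adjusted p = 0.000375) with them and -2.82 (adjusted p = 2.85e-05) without. Each of the 10 falls stayed past the threshold when any of the 24 libraries was left out.

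**Figure D3:**
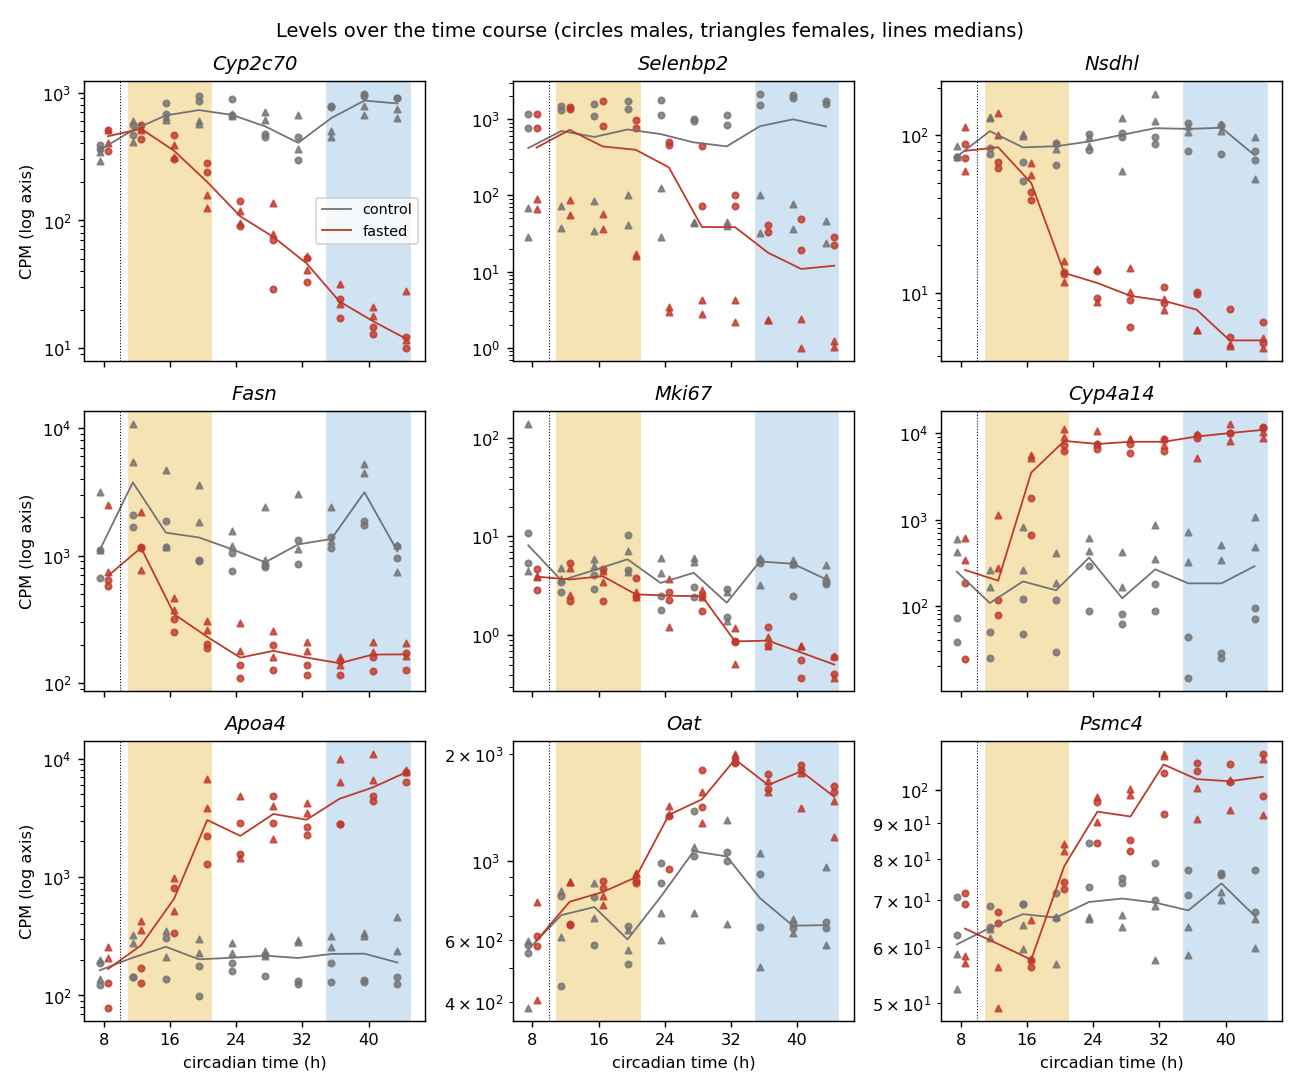
Levels in CPM, on log axes, of 9 genes against circadian time in fasted (red) and control (grey) mice, where points are libraries and lines join the medians of 4. Yellow and blue bands mark the short and the prolonged fast and the dotted line the removal of food; Cyp2c70 and Selenbp2 go on falling into the blue band, whereas Fasn, Nsdhl and Cyp4a14 made most of their change inside the yellow band.

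The largest rises were led by Apoa4, an apolipoprotein of triglyceride-rich particles. It ranged from 126 to 6709 CPM (median 659) after the short fast and from 2786 to 11010.1 CPM (median 6485) after the prolonged fast, and its ranges overlapped through the libraries of CT20 (log2 change 2.97, SE 0.18, adjusted p = 1.99e-08). Its changes by phase were 4.31 at 26 versus 2 h, 3.31 at 30 versus 6 h and 1.29 at 34 versus 10 h, and all 3 passed the test. Retsat, retinol saturase, rose by 1.496 (adjusted p = 4.9e-06). Cyp4a31 and Cyp4a10, near-identical omega-hydroxylases of fatty acids, rose by 1.83 (adjusted p = 1.49e-06) and 1.77 (adjusted p = 3.19e-07). Treh, trehalase, ranged from 0.321 to 4.95 CPM (median 2.13) after the short fast and from 4.79 to 21.7 CPM (median 9.48) after the prolonged fast (log2 change 2.22, SE 0.35, adjusted p = 0.000215). Krt23, a keratin, rose by 1.69 (adjusted p = 0.000335) and Ccdc120, a coiled-coil protein gene, by 1.60 (adjusted p = 0.000511). The rise of Nr1d1 is described with the clock genes.

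Of the 10 largest rises, 2 leaned on the libraries that stood apart. Sult1e1, the oestrogen sulphotransferase, stood at 77.6 and 47.8 CPM in them against 0.0861 to 6.15 in the other 10 prolonged-fast libraries. Its change was 2.47 (adjusted p = 0.0151) with both and 1.45 (adjusted p = 0.021) without. Slc4a9, an anion exchanger, stood at 41.9 and 18.4 CPM against 0.287 to 7.8, and its change was 2.13 (adjusted p = 0.0102) with both and 1.10 (adjusted p = 0.0406) without. Leaving out 1 library ended the call of Sult1e1 in 1 of 24 cases and that of none of the other 9.

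The 3 phases differed both in clock time and in the hours already fasted, which cannot be told apart here. At 26 versus 2 h, 2131 genes were called (11.1%), 969 of them higher. At 30 versus 6 h, 3162 were called (16.5%), 1548 of them higher. At 34 versus 10 h, 669 were called (3.49%), 397 of them higher. The change itself differed between phases for 212 genes (1.1%), by edgeR's test with 2 degrees of freedom. Of these, 156 had their largest change at 26 versus 2 h, 18 at 30 versus 6 h and 38 at 34 versus 10 h. Their median absolute log2 change was 0.88, 0.43 and 0.38 in that order. The 5 genes of smallest p, among those whose log2 CPM averaged at least 1, were Acss2, Cidec, Ehhadh, Nsdhl and Fdps. Cidec, a lipid droplet protein, changed by 4.19 at 26 versus 2 h, 2.35 at 30 versus 6 h and -0.10 at 34 versus 10 h. Its time means were 4.67 CPM at CT12, 22.6 at CT16 and 173 at CT20, then 90.4, 114 and 149 at the late times. Ehhadh, a peroxisomal enzyme of fatty acid oxidation, changed by 2.62 at 26 versus 2 h, 0.55 at 30 versus 6 h and -1.08 at 34 versus 10 h, so its rise at the first phase and its fall at the last both passed the test. Its average was 0.70 (adjusted p = 0.00079), but -0.093 in females alone and -0.27 without the phase of CT12 and CT36. Acss2, which makes acetyl-CoA from acetate, changed by -2.15 at 26 versus 2 h, -1.32 at 30 versus 6 h and 0.42 at 34 versus 10 h. The count of 212 depended on the libraries: it was 556 without both that stood apart, 93 without CT44 male 1, 458 without CT40 female 2 and 1199 without CT40 female 1.

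**Figure D4:**
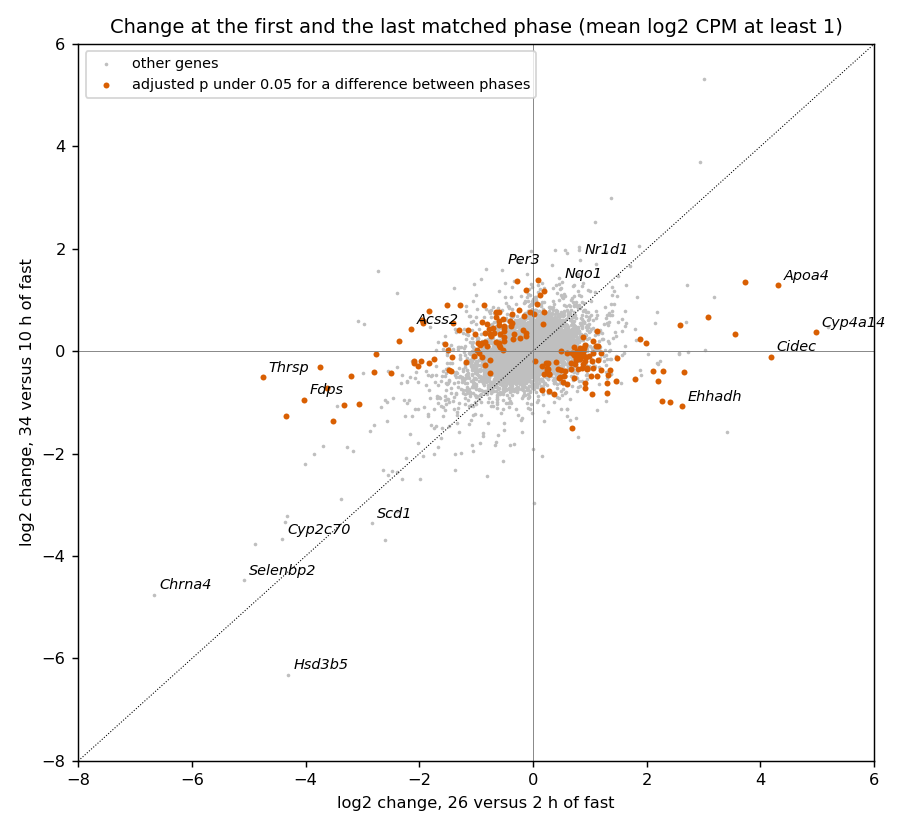
Log2 change at 26 versus 2 h (horizontal axis) against that at 34 versus 10 h (vertical axis) for genes with a mean log2 CPM of at least 1; orange points passed the test for a difference between phases and the dotted line marks equal changes. Some genes of fatty acid oxidation and lipogenesis spread along the horizontal axis, such as Cyp4a14 with 4.98 and 0.37, whereas Cyp2c70 with -4.42 and -3.68 lies near the line. The lipogenic gene Scd1 also kept a large fall at 34 versus 10 h.

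Cholesterol synthesis fell almost as a block. Of 25 genes of the pathway, its regulators and cholesterol uptake, 0 rose, 22 fell and 3 did not pass the test, with a median log2 change of -1.15 beside 0.00 over all genes. Over the same list the control median was -0.02. The median by phase was -1.83, -1.04 and -0.30 at 26 versus 2 h, 30 versus 6 h and 34 versus 10 h, and at the last phase 5 fell and 1 rose. Nsdhl, which removes a methyl group from the sterol ring, ranged from 11.8 to 138 CPM (median 49.8) after the short fast and from 4.47 to 10.2 CPM (median 5.53) after the prolonged fast, without overlap (log2 change -2.69, SE 0.09, adjusted p = 1.47e-11). Fdps, farnesyl diphosphate synthase, ranged from 14.5 to 279.5 CPM (median 93.8) after the short fast and from 7.6 to 20.1 CPM (median 10.8) after the prolonged fast (log2 change -2.67, SE 0.13, adjusted p = 2.01e-09). Idi1, the isomerase that feeds Fdps, fell by 2.32 on the log2 scale, Sqle, squalene epoxidase, by 2.23, and Cyp51, lanosterol demethylase, by 2.14. Among the regulators, Insig1, the anchor of the SREBP complex, fell by 1.23, and Srebf2, the factor itself, by 0.43.

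Because these genes moved together, their promoters are shown. RefSeq windows of 300 bases, from 250 before to 50 after a gene's start (GRCm38.p6), were matched to 17 of the 25 members. The 5 letters CCAAT, the core bound by the factor NF-Y, were in 16 of these 17 genes (94.1%) on either strand, and in 41.1% of all 27025 genes with a window. Counted by window, the shares were 76.2% of 21 member windows and 37.4% of all 32851 windows. The sterol regulatory element in the form TCACNCCAC was in 1 member, Hmgcs1, and in 1.44% of all genes, and other forms of that element were not searched. The windows below are those of the 3 members with the largest falls among those matched, and of Hmgcs1, an early synthase of the pathway. Members on 1 chromosome were left out of the choice of these 3. Capitals mark CCAAT, its reverse complement ATTGG and, in Hmgcs1, the sterol element.
Nsdhl, chrX:72918271-72918570, plus strand: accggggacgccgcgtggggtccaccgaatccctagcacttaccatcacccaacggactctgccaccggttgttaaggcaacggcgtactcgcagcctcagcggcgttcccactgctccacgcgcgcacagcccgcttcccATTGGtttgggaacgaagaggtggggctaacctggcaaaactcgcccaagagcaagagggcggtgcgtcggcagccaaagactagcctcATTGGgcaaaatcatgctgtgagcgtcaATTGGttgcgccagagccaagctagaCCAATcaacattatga
Idi1, chr13:8885356-8885655, plus strand: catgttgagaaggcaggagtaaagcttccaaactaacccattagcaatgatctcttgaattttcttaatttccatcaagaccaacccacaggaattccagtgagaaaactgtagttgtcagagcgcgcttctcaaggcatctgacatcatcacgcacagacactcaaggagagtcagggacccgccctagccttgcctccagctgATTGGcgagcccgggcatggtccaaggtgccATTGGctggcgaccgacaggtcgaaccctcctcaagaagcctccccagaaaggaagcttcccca
Cyp51, chr5:4104648-4104947, minus strand: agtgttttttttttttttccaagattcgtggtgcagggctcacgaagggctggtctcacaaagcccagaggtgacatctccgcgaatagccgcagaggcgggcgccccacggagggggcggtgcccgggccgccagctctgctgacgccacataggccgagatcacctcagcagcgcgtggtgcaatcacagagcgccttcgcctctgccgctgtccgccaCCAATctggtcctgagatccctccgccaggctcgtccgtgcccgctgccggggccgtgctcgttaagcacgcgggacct
Hmgcs1, chr13:119690101-119690400, plus strand: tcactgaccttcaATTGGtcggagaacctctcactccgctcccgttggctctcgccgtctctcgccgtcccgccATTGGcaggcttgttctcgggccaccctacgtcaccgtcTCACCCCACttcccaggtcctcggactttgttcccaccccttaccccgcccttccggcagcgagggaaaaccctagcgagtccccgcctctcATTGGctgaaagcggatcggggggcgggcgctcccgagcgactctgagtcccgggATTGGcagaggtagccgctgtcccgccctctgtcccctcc
The letters describe these windows and show no binding.

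Fatty acid synthesis fell too, most at 26 versus 2 h. Of 19 genes, 0 rose, 14 fell and 5 did not pass the test, with a median of -0.997 and by phase -1.35, -0.98 and -0.43. The control median was -0.32, and 10 of the 19 genes had a change lower than that of the controls by the test of the difference. Scd1 ranged from 1633 to 11477 CPM (median 7351) after the short fast and from 70.3 to 3735 CPM (median 597) after the prolonged fast (log2 change -3.48, SE 0.20, adjusted p = 9.18e-09). It kept falling at the last phase, by 3.36 at 34 versus 10 h. Fasn, fatty acid synthase, ranged from 191 to 2197 CPM (median 348) after the short fast and from 117 to 212 CPM (median 161) after the prolonged fast, and its changes were -3.21 at 26 versus 2 h, -1.04 at 30 versus 6 h and -0.48 at 34 versus 10 h, of which the last did not pass the test. Thrsp, an insulin-responsive regulator of lipogenesis, fell by 3.06, Elovl6, an elongase, by 1.84, and Srebf1, the SREBP-1 gene, by 1.55. Acly, the source of cytosolic acetyl-CoA, and Acss2 fell by 1.12 and 1.01, but their changes did not differ detectably from those of the controls (adjusted p = 0.245 and 0.0822). Mlxipl, the carbohydrate-response factor ChREBP, ranged from 201 to 477 CPM (median 298) after the short fast and from 108 to 200.4 CPM (median 166) after the prolonged fast, without overlap (log2 change -0.97, SE 0.11, adjusted p = 1.02e-05).

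Fatty acid oxidation rose, with the largest part at the first phase. Of 28 genes, 19 rose, 0 fell and 9 did not pass the test, with a median of 0.43 and by phase 0.93, 0.33 and 0.11. At 34 versus 10 h 1 gene rose and 2 fell. The median in controls was 0.11, and 12 genes had a change higher than that of the controls by the test of the difference. The omega-hydroxylases led, with Cyp4a14 ranging from 78.4 to 11228 CPM (median 3503) after the short fast and from 5177 to 12913 CPM (median 9949) after the prolonged fast (log2 change 2.46, SE 0.22, adjusted p = 1.19e-06). Its changes were 4.98 at 26 versus 2 h, 2.03 at 30 versus 6 h and 0.37 at 34 versus 10 h, and the last did not pass the test. In mitochondria, Acadl and Acadm, dehydrogenases of long and medium chains, rose by 0.76 (adjusted p = 3.2e-07) and 0.72 (adjusted p = 8.52e-05), and Acadl still rose at 34 versus 10 h, by 0.39 (adjusted p = 0.0436). Cpt1a, the gate of long-chain entry, ranged from 646 to 1225 CPM (median 895) after the short fast and from 1058 to 1412 CPM (median 1174) after the prolonged fast (log2 change 0.38, SE 0.06, adjusted p = 0.000284). Leaving both libraries that stood apart out, 22 members rose. Of 8 ketone body genes, 4 rose, 1 fell and 3 did not pass the test. Oxct1, which uses ketone bodies and is low in liver, fell by 0.93.

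Of 25 PPARalpha targets and fasting regulators, 9 rose, 0 fell and 16 did not pass the test, where 30.3% of all genes were called. The median was 0.26, against 0.11 in controls, and 4 genes had a change higher than the control change by the test of the difference. Vnn1, a pantetheinase, rose by 1.25 (adjusted p = 0.00156) and Ppargc1a, the coactivator PGC-1alpha, by 0.89 (adjusted p = 0.00478). Fgf21, the fasting hormone, ranged from 0.314 to 24.9 CPM (median 8.96) after the short fast and from 0.7 to 24.03 CPM (median 9.9) after the prolonged fast. Its average change was 1.002 (adjusted p = 0.04), but its changes by phase were 2.73 at 26 versus 2 h, 0.29 at 30 versus 6 h and -0.01 at 34 versus 10 h, and only the first passed the test. The call on the average was lost in 18 of the 24 fits that left out 1 library, with values from 0.41 without CT40 female 1 to 1.21, and the change was 1.27 (adjusted p = 0.000127) without both libraries that stood apart. Pdk4, Acot1, Plin2, Angptl4 and Ppara had changes of 0.79, 0.42, 0.26, 0.14 and -0.37 that did not pass. Pdk4 varied over the short-fast libraries from 2.25 to 802 CPM. Acot1, a thioesterase, changed by 2.41 at 26 versus 2 h, -0.16 at 30 versus 6 h and -0.999 at 34 versus 10 h. When both libraries that stood apart were left out, 12 members rose and Plin2 was among them at 0.37 (adjusted p = 0.00134).

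Genes of glucose handling moved in both directions. Of 27, 8 rose, 9 fell and 10 did not pass the test, and the median was -0.00. Pklr, pyruvate kinase, fell by 1.73, Khk, the fructose kinase, by 0.88, and Pygl, glycogen phosphorylase, by 0.94. Gys2, liver glycogen synthase, rose by 0.59 (adjusted p = 0.000475), and Slc37a4, the glucose-6-phosphate transporter, by 0.55 (adjusted p = 0.0028). In gluconeogenesis, Pck1, the cytosolic carboxykinase, ranged from 3518 to 6409.8 CPM (median 4659) after the short fast and from 3167 to 7038 CPM (median 5781) after the prolonged fast and rose by 0.33 (adjusted p = 0.0118), with a control change of 0.29 and no detectable difference between the treatments (adjusted p = 0.951). G6pc1, glucose-6-phosphatase, fell by 0.47, and Fbp1 had a change of 0.02 (adjusted p = 0.906).

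The proteasome, which degrades tagged proteins, rose at every phase. Of 28 proteasome genes, 27 rose, 0 fell and 1 did not pass the test, with a median of 0.38 and by phase 0.47, 0.44 and 0.29. The gene that did not pass was Nfe2l1, the factor that induces the others, at -0.21 (adjusted p = 0.271), so that all 27 subunit genes measured rose. At 34 versus 10 h 13 of them were called, and in controls the median was 0.04. Psmc4, an ATPase of the cap, ranged from 49.2 to 84.1 CPM (median 65.2) after the short fast and from 91.0 to 113 CPM (median 103) after the prolonged fast, without overlap (log2 change 0.67, SE 0.05, adjusted p = 1.68e-07). Psmb5, the subunit of chymotrypsin-like activity, ranged from 26.6 to 38.3 CPM (median 32.7) after the short fast and from 41.2 to 56.2 CPM (median 48.4) after the prolonged fast, also without overlap (log2 change 0.57, SE 0.05, adjusted p = 1.17e-06). In the fit without both libraries that stood apart 27 members rose, with a median of 0.37.

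Of 30 genes of amino acid catabolism and the urea cycle, 14 rose, 3 fell and 13 did not pass the test, with a median of 0.23 and by phase 0.19, 0.21 and 0.21. The control median was -0.09. Oat, ornithine aminotransferase, ranged from 661 to 928 CPM (median 868) after the short fast and from 1170.0 to 1869 CPM (median 1612) after the prolonged fast, without overlap (log2 change 0.97, SE 0.05, adjusted p = 7.13e-09). All 3 of its phase changes passed the test, at 1.12 at 26 versus 2 h, 1.09 at 30 versus 6 h and 0.71 at 34 versus 10 h. In the urea cycle, Asl and Arg1, argininosuccinate lyase and arginase, rose by 0.66 (adjusted p = 0.000553) and 0.55 (adjusted p = 0.00273), and Cps1, the first enzyme, by 0.40 (adjusted p = 0.0116). Otc, the transcarbamylase of the same cycle, fell by 0.72 and ranged from 199.6 to 482 CPM (median 423) after the short fast and from 81.4 to 338 CPM (median 239.8) after the prolonged fast. Got1 rose by 0.78 (adjusted p = 0.0162), which was 0.47 (adjusted p = 0.0716) without both libraries that stood apart. Tat and Sds, transcripts commonly read as fasting responses, had changes of 0.13 (adjusted p = 0.682) and -0.18 (adjusted p = 0.487). Of 25 genes of autophagy and the lysosome, 8 rose, 3 fell and 14 did not pass the test, where 30.3% of all genes were called. Ctsl, cathepsin L, was at 0.78 (adjusted p = 0.00327), Atg7, needed for conjugation of LC3, at 0.40 (adjusted p = 0.000116), and Ulk2, a starting kinase, at -0.60 (adjusted p = 0.00114). Of 4 ubiquitin ligase genes, Fbxo21 rose, by 0.62 (adjusted p = 0.000499), and Fbxo32, atrogin-1, had a change of 0.11 (adjusted p = 0.501).

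One-carbon metabolism, which carries methyl groups from folate and choline to S-adenosylmethionine, had 32 genes tested, of which 5 rose, 6 fell and 21 did not pass the test, with a median of 0.06. These counts lie near those over all genes, of which 15.1% rose and 15.2% fell. Mat1a, the liver synthetase of S-adenosylmethionine, ranged from 3249.8 to 13389 CPM (median 8235) after the short fast and from 10531 to 16286 CPM (median 11904) after the prolonged fast (log2 change 0.79, SE 0.10, adjusted p = 4.74e-05). Ahcy, which clears the product S-adenosylhomocysteine, ranged from 1345 to 2263 CPM (median 1843) after the short fast and from 2061 to 2862 CPM (median 2549) after the prolonged fast (log2 change 0.50, SE 0.06, adjusted p = 3.31e-05). Ftcd, of histidine and folate breakdown, rose by 0.54 (adjusted p = 4.34e-05) and Cdo1, which oxidises cysteine, by 0.45 (adjusted p = 0.00116). Among the enzymes that use methyl groups, Gamt ranged from 38.8 to 232 CPM (median 142) after the short fast and from 2.21 to 60.9 CPM (median 35.4) after the prolonged fast, at -1.89 (adjusted p = 0.000634) with and -1.60 (adjusted p = 1.22e-07) without both libraries that stood apart. Pemt, which makes phosphatidylcholine, fell by 0.36, whereas Gnmt and Nnmt, which dispose of methyl groups, had changes of 0.11 (adjusted p = 0.277) and 0.07 (adjusted p = 0.854). Gnmt did rise at the last phase, by 0.58 (adjusted p = 0.0195). In the folate cycle, Aldh1l1 fell by 0.53 and Mthfd2 by 0.65. Without both libraries that stood apart, 9 members rose and 7 fell, and Bhmt, the betaine-dependent methyltransferase, was among the rises at 0.37 (adjusted p = 0.0252). Of 18 writers and erasers of RNA and chromatin methylation, 1 rose, 2 fell and 15 did not pass the test, where 30.3% of all genes were called. Wtap, of the m6A writer, rose by 0.15 (adjusted p = 0.00369), and Dnmt1 fell by 0.33. The change of the cap methyltransferase Cmtr1 was -0.31 (adjusted p = 0.0401), a call that was lost in 16 of the 24 fits that left out 1 library, and it was -0.20 (adjusted p = 0.071) without both libraries that stood apart. The m6A enzymes Mettl3, Mettl14, Fto and Alkbh5 had changes between -0.06 and 0.12 that did not pass.

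Because phase was held, a difference in clock genes is a difference at the same hour. Of 19 clock genes, 7 rose, 3 fell and 9 did not pass the test. Nr1d1, the repressor REV-ERBalpha, had its rise at the later phases, with changes of 0.82 at 26 versus 2 h, 2.16 at 30 versus 6 h and 1.79 at 34 versus 10 h. In fasted mice its time means were 32.9, 8.45 and 5.86 CPM on the first day and 57.0, 38.7 and 19.9 CPM on the second. In controls the second-day means were 28.9, 6.3 and 3.38 CPM. Nr1d2, its paralog, changed by -0.12 at 26 versus 2 h, 0.49 at 30 versus 6 h and 1.20 at 34 versus 10 h. Per3, a period gene, changed by -0.54 at 26 versus 2 h, 0.41 at 30 versus 6 h and 1.59 at 34 versus 10 h. The last change was called for both Nr1d2 and Per3. Tef and Dbp, output factors of the PAR family, rose on average by 0.33 (adjusted p = 0.000459) and 0.52 (adjusted p = 0.0208), and Ciart, a repressor, by 0.58 (adjusted p = 0.00757). Nfil3, which opposes the PAR factors, fell by 0.82 and Cry1 by 0.50. The activators Bmal1, Clock and Npas2 had average changes of -0.39, -0.16 and -0.52 that did not pass the test, though Bmal1 fell at 30 versus 6 h, to a log2 change of -0.997 (adjusted p = 0.0213), and Npas2 at 34 versus 10 h, to -2.44 (adjusted p = 0.011). Clock rose at 26 versus 2 h, by 0.54 (adjusted p = 0.0155), and fell at 30 versus 6 h and 34 versus 10 h, by 0.52 (adjusted p = 0.0143) and 0.49 (adjusted p = 0.0487). Per1 and Per2 had changes of 0.24 (adjusted p = 0.229) and -0.04 (adjusted p = 0.752).

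In the growth hormone axis, 3 rose, 8 fell and 11 did not pass the test among 22 genes. By the test of the difference, 2 had a change higher than that of the controls and 5 a lower one. Ghr, the receptor, ranged from 169 to 661 CPM (median 452) after the short fast and from 60.9 to 454 CPM (median 238) after the prolonged fast (log2 change -0.80, SE 0.16, adjusted p = 0.0015). Igfals, which keeps IGF-1 in the blood, fell by 0.77, and Igf1 had a change of -0.31 (adjusted p = 0.0631), or -0.33 (adjusted p = 0.0133) without both libraries that stood apart. Igfbp2, a binding protein raised by fasting, ranged from 409 to 1072 CPM (median 606) after the short fast and from 830.2 to 1794 CPM (median 1098) after the prolonged fast (log2 change 0.83, SE 0.10, adjusted p = 1.81e-05). The major urinary protein genes are near-identical copies, so single members are uncertain, and 4 of the 6 fell. Mup20 ranged in males from 1983 to 2747 CPM (median 2457) after the short fast and from 1242 to 2220.4 CPM (median 1496) after the prolonged fast. In the fit without both libraries that stood apart, 2 genes of the axis rose and 12 fell. Of 13 insulin signalling genes, 0 rose, 6 fell and 7 did not pass, with Irs1, a receptor substrate, at -0.42 (adjusted p = 0.0209), Foxo1 at -0.28 (adjusted p = 0.00925) and Irs2 at -0.21 (adjusted p = 0.245), or -0.34 (adjusted p = 0.0323) without both libraries that stood apart.

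Of 18 genes of bile acid synthesis and transport, 3 rose, 5 fell and 10 did not pass the test, where 30.3% of all genes were called. Slco1a1, an uptake transporter of bile acids and steroids, ranged from 29.0 to 597 CPM (median 265) after the short fast and from 2.8 to 237 CPM (median 35.4) after the prolonged fast (log2 change -2.65, SE 0.25, adjusted p = 2.75e-06). Abcb11, the export pump, fell by 0.94, Cyp7b1 and Cyp27a1, of the alternative pathway, by 0.82 and 0.67, and Slco1a4 rose by 0.84 (adjusted p = 0.00107). Cyp7a1, the rate-limiting enzyme of the classical pathway, ranged from 7.18 to 486 CPM (median 153) after the short fast and from 8.51 to 176 CPM (median 18.4) after the prolonged fast and did not pass the test at -1.01 (adjusted p = 0.1). It fell, to -1.94 (adjusted p = 0.00103), without both libraries that stood apart. Of 29 drug metabolism genes, 7 rose, 9 fell and 13 did not pass the test. By the test of the difference, 2 had a change higher than that of the controls and 5 a lower one. Cyp1a2 ranged from 164 to 676 CPM (median 371) after the short fast and from 13.1 to 178 CPM (median 70.8) after the prolonged fast (log2 change -2.26, SE 0.23, adjusted p = 5.33e-06), and Ugt2b1, a glucuronosyltransferase, fell by 1.60. Nqo1, a quinone reductase, rose by 0.93 (adjusted p = 1.67e-06) with a last-phase change of 1.32 (adjusted p = 0.00033), and Nr1i3, the receptor CAR, rose by 0.76 (adjusted p = 0.00155).

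Cell division transcripts fell. Of 29 cell cycle genes, 1 rose, 15 fell and 13 did not pass the test, and of the 18 genes of S phase and mitosis 13 fell, with a median of -1.27 and by phase -1.45, -1.25 and -0.87. Mki67, a marker of cycling cells, ranged from 2.2 to 5.39 CPM (median 3.12) after the short fast and from 0.368 to 1.21 CPM (median 0.692) after the prolonged fast, without overlap (log2 change -2.35, SE 0.20, adjusted p = 7.36e-07). Top2a, which untangles replicated DNA, ranged from 0.707 to 3.2 CPM (median 1.68) after the short fast and from 0.0409 to 0.446 CPM (median 0.268) after the prolonged fast, also without overlap (log2 change -2.84, SE 0.30, adjusted p = 6.5e-06). Cdk1, the mitotic kinase, fell by 2.24, and Ccnd1, a G1 cyclin, by 0.97. Gadd45b, a stress-induced inhibitor, was the member that rose, by 1.36 (adjusted p = 0.0143). Without both libraries that stood apart 0 cell cycle genes rose and 18 fell. Called markers of other cells mostly fell, and so did those of hepatocytes, of which 1 of 6 rose and 3 fell (median -0.17). For Kupffer cells and macrophages 1 of 8 measured markers rose and 7 fell, and the summed level ranged from 270.2 to 592 CPM after the short fast and from 201 to 367 CPM after the prolonged fast. For red cell precursors 0 of 5 measured markers rose and 5 fell, and the summed level ranged from 46.2 to 271 CPM after the short fast and from 33.0 to 126 CPM after the prolonged fast. For stellate cells and fibroblasts 0 of 8 measured markers rose and 6 fell, and the summed level ranged from 366 to 633 CPM after the short fast and from 288 to 590.0 CPM after the prolonged fast. For sinusoidal endothelium 0 of 7 measured markers rose and 4 fell, and the summed level ranged from 397 to 569.9 CPM after the short fast and from 369 to 492 CPM after the prolonged fast. In whole liver fewer cells of a type and less RNA per cell cannot be told apart, and the part of these cells in the fall of cell cycle genes was not tested. For T, B and NK cells 0 of 7 markers rose and 2 fell, and for cholangiocytes 0 of 5 rose and 1 fell. For neutrophils and monocytes 1 of 5 rose and 2 fell, with a positive median of 0.40. For pancreatic acinar cells 0 of 2 rose and 2 fell. Over all genes 15.1% rose and 15.2% fell.

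More acute phase genes fell than rose. Of 20, 3 rose, 8 fell and 9 did not pass the test, with a median of -0.20 in fasted mice and 0.32 in controls. Saa1 and Saa2, near-identical serum amyloid genes, fell by 1.54 and 1.55, beside control changes of 1.24 and 1.97 that did not pass the test. Orm2, a serum glycoprotein, fell by 1.01, while Serpina3n, a protease inhibitor, rose by 0.71 (adjusted p = 0.0016). Of 18 heat shock and cold-inducible genes, 6 rose, 2 fell and 10 did not pass the test. The cold-inducible RNA-binding proteins Rbm3 and Cirbp, whose transcripts rise when body temperature falls, were higher: Rbm3 ranged from 19.1 to 32.2 CPM (median 26.4) after the short fast and from 30.3 to 59.8 CPM (median 46.5) after the prolonged fast (log2 change 0.79, SE 0.07, adjusted p = 1.31e-06). Cirbp rose by 0.99 (adjusted p = 0.000263), or 0.74 (adjusted p = 3.4e-05) without both libraries that stood apart. Hspa1a and Hspa1b, the near-identical inducible HSP70 genes, fell by 1.93 and 1.40, and Hspa1a changed by -0.39 at 26 versus 2 h, -3.04 at 30 versus 6 h and -2.35 at 34 versus 10 h. Hspa8, Hsp90aa1 and Dnajb1 had changes of -0.12, 0.09 and -0.35 that did not pass. Of 16 glucocorticoid-related genes 2 rose, 5 fell and 9 did not pass, where 30.3% of all genes were called. Serpina6, the carrier of corticosterone in blood, fell by 1.97, Tsc22d3, a classical target, by 0.62, and Fkbp5, another target, had a change of 0.13 (adjusted p = 0.556).

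The lists that follow are set beside all genes, of which 15.1% rose and 15.2% fell. Of the ribosomal protein genes 17 of 35 rose and 0 fell (median 0.16), with Rplp2 at 0.40 (adjusted p = 0.000369), and of the ribosome production genes 4 of 17 rose and 0 fell (median 0.13). Both counts leaned on the libraries that stood apart, and without them 13 ribosomal protein genes rose, while 0 ribosome production genes rose and 2 fell. At single phases, with all libraries, 0 ribosomal protein genes were called at 26 versus 2 h, 2 at 30 versus 6 h and 0 at 34 versus 10 h. Of the oxidative phosphorylation genes 11 of 29 rose and 2 fell (median 0.11), with mt-Nd5, coded by mitochondrial DNA, at 0.40 (adjusted p = 7.08e-05). By origin, 9 of 20 nuclear-coded subunit genes rose and 2 fell, while 2 of 9 mitochondrially coded ones rose and 0 fell. The share of all mitochondrial transcripts, given above, moved in the same direction, and its part in this count was not tested. Of the integrated stress response genes 5 of 23 rose and 2 fell (median 0.13), near the 30.3% of all genes called in either direction. Trib3, a target of ATF4, ranged from 2.78 to 8.96 CPM (median 5.24) after the short fast and from 7.36 to 20.9 CPM (median 10.4) after the prolonged fast (log2 change 1.16, SE 0.14, adjusted p = 2.01e-05), and Sesn2, a sensor of amino acids, rose by 0.92 (adjusted p = 0.00531), which was 0.47 (adjusted p = 0.00171) without both libraries that stood apart. Asns and Atf4, of the same response, had changes of -0.02 (adjusted p = 0.995) and 0.19 (adjusted p = 0.223). Without both libraries that stood apart, 5 members rose, 5 fell and the median was 0.00. Of the endoplasmic reticulum chaperones 5 of 20 rose and 2 fell (median 0.12), also near the 30.3% of all genes called. Calr, calreticulin, was at 0.57 (adjusted p = 3.24e-05) and Hspa5, BiP, at 0.23 (adjusted p = 0.182). Of the antioxidant genes 6 of 11 rose and 2 fell (median 0.20), with Srxn1, sulfiredoxin, at 0.98 (adjusted p = 6.98e-06) and Gsr, glutathione reductase, at 0.56 (adjusted p = 3.28e-05). Of the NAD genes 4 of 12 rose and 1 fell (median 0.01), with Nmnat3 at 0.59 (adjusted p = 0.00121) and Nampt, the salvage enzyme, at -0.28 (adjusted p = 0.0151). Of the apolipoprotein genes 3 of 11 rose and 2 fell (median 0.11), with Apoa1, the main protein of HDL, at 0.37 (adjusted p = 0.00807) and Lipc, hepatic lipase, at -0.63 (adjusted p = 0.000973).

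The change differed between the sexes for 16 genes (0.0834%), 4 of them more positive in females. The 5 of smallest p with a mean log2 CPM of at least 1 were Cyp2c38, Acnat2, Prlr, Cyp51 and Cyp2c39. Cyp2c38, a P450 with near-identical relatives, was higher in every female than in every male after the short fast. In males it ranged from 25.7 to 42.3 CPM (median 27.9) after the short fast and from 80.3 to 165 CPM (median 114) after the prolonged fast. In females it ranged from 85.7 to 208 CPM (median 162) after the short fast and from 97.2 to 237 CPM (median 152) after the prolonged fast, and the female change was lower than the male change (log2 change -1.76, SE 0.15, adjusted p = 7.7e-05). All 6 prolonged-fast males lay above the 6 short-fast males, while the female ranges overlapped. Differences between the sexes are female minus male. Prlr, the prolactin receptor, ranged in females from 142 to 329.8 CPM (median 280.4) after the short fast and from 85.0 to 131 CPM (median 114) after the prolonged fast and in males from 30.8 to 75.1 CPM (median 49.4) after the short fast and from 56.9 to 92.7 CPM (median 64.2) after the prolonged fast (log2 change -1.66, SE 0.21, adjusted p = 0.00288). Acnat2, an acyltransferase, and Cyp2c39 differed likewise, by -2.16 (adjusted p = 0.00288) and -1.71 (adjusted p = 0.02). Cyp51 fell in both sexes, to at most 13.9 CPM in females and at most 29.9 CPM in males, and the female fall was the larger (log2 change -1.25, SE 0.19, adjusted p = 0.02). The count of 16 was 21 without both libraries that stood apart, 3 without CT36 male 1 or CT20 female 2, 228 without CT44 female 2 and 1462 without CT40 female 1.

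At 34 versus 10 h the early mice had already fasted for 10 h, and 253 of the 669 genes called there were also called at 26 versus 2 h, 230 of them with the same sign. These 253 are 37.8% of the later and 11.9% of the earlier calls. At all 3 phases 218 genes were called, of which 104 rose and 112 fell throughout. Fbxo36, an F-box gene, rose by 1.97 (adjusted p = 0.000834) at 34 versus 10 h and by 0.81 at 26 versus 2 h. Slc2a9, a urate transporter, rose by 1.36 (adjusted p = 0.00124) at 34 versus 10 h and had a change of -0.28 (adjusted p = 0.38) at 26 versus 2 h. These examples were chosen after their values were seen. Hsd17b10, a mitochondrial dehydrogenase, rose at all 3 phases, by 1.39 at 26 versus 2 h, 1.34 at 30 versus 6 h and 0.78 at 34 versus 10 h, and ranged from 106 to 307 CPM (median 164) after the short fast and from 213 to 561 CPM (median 368) after the prolonged fast. Fabp2, a fatty acid carrier best known from intestine, ranged from 24.5 to 73.1 CPM (median 48.5) after the short fast and from 53.6 to 147 CPM (median 120.3) after the prolonged fast (log2 change 1.19, SE 0.13, adjusted p = 8.34e-06). The count of 669 was 746 without both libraries that stood apart. It moved by over 1.5 times without any 1 of 10 libraries, from 195 without CT44 male 2 to 1279 without CT44 female 2.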

How the data were processed

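Liver RNA was sequenced as poly(A)-selected, stranded, paired-end libraries. The authors deposited a table of raw read counts for 78275 genes, which was used here. Their processing notes name Trimmomatic, HISAT2, DESeq2 and the build GRCm39, with no version, and the read counter, annotation and strand setting are not given in the sources used here. A second table of normalised values and one of exon counts were not used. Groups were taken from the sample titles. From the counts, levels were computed as CPM with TMM factors over all 80 libraries. Changes were fitted with edgeR 4.0.16 (R 4.3.3) by a quasi-likelihood model with 1 mean for each combination of time and sex, after edgeR's filter on low counts, which left 19189 genes in the 24 fasted libraries (12 residual degrees of freedom) and 20362 in the 48 libraries with controls. The Benjamini-Hochberg procedure was applied to the p-values of all genes tested, and SE was derived from the fitted change and its F statistic. The p-values measure the spread between mice of 1 time and sex, and cages, litters and processing dates are not given. Library totals and shares were compared by permutation tests with 100000 resamples, which did not hold time or sex.

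Alternatives were limma-voom (limma 3.58.1), DESeq2 1.42.0, other scalings, filters, thresholds and models, leaving out each library or phase, and each sex alone. The fits without both libraries that stood apart, and without Rn18s-rs5, were added after the data were seen. The quasi-likelihood fit of edgeR was tested before use on artificial counts with known changes, for some of the comparisons. Replicate numbers did not pair the mice. Deviations of same-numbered libraries from their group means correlated between -0.28 and 0.10 in males and between -0.45 and 0.22 in females.

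The comparison, the 29 gene lists (616 members) and the marker lists were chosen with earlier results of these data known. Named genes were the marked members of each list and its 4 called members of largest change, the 10 largest rises and falls with a mean log2 CPM of at least 1, a symbol other than Gm or Rik and 1 sign in all 6 combinations of phase and sex, and the 5 genes of smallest p for the differences between phases, sexes and treatments. Promoter windows came from RefSeq (GRCm38.p6), another build than that of the counts, and were matched by symbol. A few named genes are not reported here. Sequencing depth, 26820667 to 52999252 counts a library, limits the precision of transcripts near 0 CPM.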

Additional observations from a re-analysis of the deposited data

Results flagged for a closer look

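Among 78 groups of 4 libraries, tested on 13 measures of quality and marker content, 5 held a library whose distance from the nearest other exceeded Dixon's 95% critical value, and chance alone flags about 1 in 20 groups. The share of the ribosomal RNA gene Rn18s-rs5 was 1.80% in CT40 male 1, where the other 3 libraries of that time held at most 0.105%. Summed Kupffer cell and macrophage markers were 335 CPM in CT40 female 1, above 201 to 222 CPM in the other 3. Summed cholangiocyte markers were 9.13 CPM in CT40 female 2, below 20.6 to 23.0 CPM. Summed adipocyte markers were 0.074 CPM in CT12 female 1, below 1.28 to 1.43 CPM, and 1.37 CPM in CT44 male 1, above 0.068 to 0.236 CPM.

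Differences between groups in the size of the change passed edgeR's test for 4208 genes between fasted and control mice, for 212 genes between phases and for 16 genes between the sexes. The 5 named genes of the last comparison had female minus male differences of -1.76 (Cyp2c38), -2.16 (Acnat2), -1.66 (Prlr), -1.25 (Cyp51) and -1.71 (Cyp2c39) on the log2 scale, and their levels in each sex were given above for Cyp2c38, Prlr and Cyp51.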

How the results depend on the processing

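Over the 251 named genes and 10764 alternatives, 10055 kept their side of the threshold, 543 lost the call and 154 gained one. A further 12 changed sign in a gene called in the main fit, the alternative or both. Changes of sign in genes called in neither fit are among the 10055. Igfbp1, for example, had a change of 0.45, which reached -0.38 with 1 library left out. The 12 changes of sign were Ehhadh at -0.093 in females alone and -0.27 without the phase of CT12 and CT36, Acot1 at -0.58 without that phase, Ddit4 at -0.94 without both libraries that stood apart and -0.86 without CT40 female 2 (-0.86 to 0.30 with any 1 library left out), Cux2 at -0.21 with no sex in the model and -0.44 in females alone, and, in males alone, Sdf2l1 at -0.53, Cyp2a5 at 0.40, Myc at -0.58, Dnajb11 at -0.0096 and G0s2 at 0.28.

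Of the 5806 genes called on average, 3302 remained at an adjusted p under 0.01 and 2185 with a change of at least 1.5 times. In males alone 3413 were called, in females alone 2211, without the phase of CT12 and CT36 3835, and without that of CT16 and CT40 3041. At an adjusted p under 0.01 the counts were 835, 1214 and 169 at 26 versus 2, 30 versus 6 and 34 versus 10 h, 3 between sexes, 77 between phases and 2100 between treatments. With a change of at least 1.5 times they were 1370, 1931 and 372 at the 3 phases and 1864 between treatments. With no filter on low counts 1533 genes were called at 34 versus 10 h (755 higher, 778 lower, against 397 and 272), 1053 between sexes (468 positive of them), 1345 between phases and 336 in controls. DESeq2 called 1287, 273 (153 positive), 750 and 15 in that order, and limma-voom 1 in controls. A minimum of 10 counts in every library left 11 between sexes, 1 of them positive. Without both libraries that stood apart 3442 were called at 26 versus 2 h and 556 between phases. The cause of these differences was not tested, beyond the fewer libraries or stricter limits of some.

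With the replicate number as a block, which did not pair the mice, the counts were 5385 on average, 1811, 2691 and 483 at the 3 phases, 10 between sexes, 125 between phases, 3966 between treatments and 0 in controls.

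Leaving out 1 library gave 4910 to 7283 on average, 3583 to 5584 between treatments and 0 to 1 in controls (1 without control CT20 male 2). At 26 versus 2 h it gave 1104 to 2833, with 1104 and 1130 without CT36 male 1 and 2, 1292 without CT36 female 1, 1219 without CT12 male 2, and 1410 and 1222 without CT12 female 1 and 2. At 30 versus 6 h it gave 1463 to 5252, with 1921 and 1547 without CT40 male 1 and 2, 5252 without CT40 female 1, 1807 without CT16 male 1 and 1463 without CT16 female 2. At 34 versus 10 h it gave 195 to 1279, with 212, 229, 281 and 197 without CT20 male 1, male 2, female 1 and female 2, 301, 195, 242 and 1279 without the same 4 of CT44, and 1219 and 1225 without CT40 female 1 and 2. Between sexes it gave 3 to 1462 and moved by over 1.5 times for 18 of 24 libraries, upwards for CT40 female 1 (1462), CT44 female 2 (228), CT36 female 1 (65) and CT40 female 2 (26). Between phases it gave 93 to 1199 and so moved for 17 of 24, upwards for CT40 female 1 (1199) and CT40 female 2 (458). A time and sex left with 1 library was assumed to vary like the others.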
